A study of Mus musculus with 32 samples.

Results

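The genes described here are 10 collagen chains that do not form the banded fibrils of tendon and bone, namely Col4a1, Col4a2, Col6a1, Col6a2, Col6a3, Col8a1, Col12a1, Col14a1, Col15a1 and Col16a1. They were taken by gene symbol from the 31053 genes counted in every sample, and each symbol matched 1 gene. Their UMI counts (unique molecular identifiers, 1 per captured transcript) were followed across cell classes of BMSC-OBs, the stromal cells that grow out of mouse femoral marrow and are then differentiated in medium with ascorbic acid, β-glycerophosphate and dexamethasone. The mice were Diversity Outbred (DO) animals, an outbred stock derived from several inbred strains, and no genotype or treatment was contrasted, since every culture received the same medium. Cells from 77 mice, of both sexes and of an age not given in the sources used here, were combined into 16 pools of 4 or 5 mice, and each pool was captured on the 10x Chromium (3′ chemistry) and sequenced in 2 runs, which gave 32 samples. All values are from run HGYVNCCX2, with the other run as an alternative, and the question was in which cell types each chain was expressed and how far its level differed between cell types and pools.

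Non-fibrillar collagens build the parts of the extracellular matrix that surround and link the fibrils. Chains of type IV assemble into the sheet of basement membranes beneath endothelium and around adipocytes, type VI forms beaded microfilaments close to the cell surface, and type VIII forms hexagonal networks in vessel walls and the cornea. Types XII, XIV and XVI belong to the FACIT collagens, which sit on the surface of fibrils and connect them to other matrix proteins, and type XV is a multiplexin, a basement membrane proteoglycan whose C-terminal end is related to endostatin. In bone, most of the matrix made by osteoblasts is the fibrillar type I collagen (Col1a1, Col1a2), and the non-fibrillar chains are better known from stroma, vessels, periosteum and marrow fat.

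The type IV chains are encoded head to head, and both type VI chains that form the core of the microfilament lie on chromosome 10. In the annotation of GRCm38 (GENCODE M21), Col4a1 (ENSMUSG00000031502) spans chr8:11198423-11312826 on the minus strand and Col4a2 (ENSMUSG00000031503) spans chr8:11312805-11449287 on the plus strand, so that the 5′ ends of the gene models overlap by 22 bases. Col6a2 (ENSMUSG00000020241, chr10:76595762-76623630) and Col6a1 (ENSMUSG00000001119, chr10:76708792-76726168) are both on the minus strand, 85161 bases apart. Of the other members, Col6a3 is at chr1:90765923-90843971 (minus), Col8a1 at chr16:57624258-57754737 (minus), Col12a1 at chr9:79598991-79718831 (minus), Col14a1 at chr15:55307750-55520803 (plus), and on chromosome 4 Col15a1 at chr4:47208161-47313167 (plus) and Col16a1 at chr4:130047840-130099283 (plus). The windows from 250 bases before to 50 bases after the start annotated by RefSeq are shown for these 4 genes, because both pairs moved together across cell classes and pools (described further on) and differ in how their starts are arranged. The sequences are from RefSeq on GRCm38.p6, read 5′ to 3′ on the strand of the gene, with capitals marking 3 motifs on either strand: CCAAT (the CCAAT box, ATTGG when reversed), then GGGCGG (the GC box, with reverse complement CCGCCC) and then TATAAA (the TATA box, with reverse complement TTTATA). None of the 3 contains another. The RefSeq start equals the start of the gene model given above for Col4a1, Col4a2 and Col6a2, and lies downstream of it, within the model, for Col6a1.
Col4a1, chr8:11312777-11313076, minus strand: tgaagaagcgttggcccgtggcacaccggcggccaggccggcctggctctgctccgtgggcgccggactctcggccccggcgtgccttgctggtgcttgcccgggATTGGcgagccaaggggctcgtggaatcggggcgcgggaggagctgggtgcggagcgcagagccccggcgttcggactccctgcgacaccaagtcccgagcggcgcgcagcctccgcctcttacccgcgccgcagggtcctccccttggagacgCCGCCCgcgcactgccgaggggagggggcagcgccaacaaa
Col4a2, chr8:11312555-11312854, plus strand: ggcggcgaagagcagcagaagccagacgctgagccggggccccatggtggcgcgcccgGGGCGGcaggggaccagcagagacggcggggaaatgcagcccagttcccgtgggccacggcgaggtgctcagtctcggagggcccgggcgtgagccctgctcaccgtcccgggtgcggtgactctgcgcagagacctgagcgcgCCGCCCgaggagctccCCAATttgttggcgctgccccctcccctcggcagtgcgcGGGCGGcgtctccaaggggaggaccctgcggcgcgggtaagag
Col6a1, chr10:76725995-76726294, minus strand: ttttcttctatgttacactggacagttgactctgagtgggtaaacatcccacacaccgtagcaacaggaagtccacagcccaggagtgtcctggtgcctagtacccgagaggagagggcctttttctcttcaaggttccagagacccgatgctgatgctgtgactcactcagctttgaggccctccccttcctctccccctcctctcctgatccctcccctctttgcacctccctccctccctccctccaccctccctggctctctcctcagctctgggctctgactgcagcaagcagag
Col6a2, chr10:76623581-76623880, minus strand: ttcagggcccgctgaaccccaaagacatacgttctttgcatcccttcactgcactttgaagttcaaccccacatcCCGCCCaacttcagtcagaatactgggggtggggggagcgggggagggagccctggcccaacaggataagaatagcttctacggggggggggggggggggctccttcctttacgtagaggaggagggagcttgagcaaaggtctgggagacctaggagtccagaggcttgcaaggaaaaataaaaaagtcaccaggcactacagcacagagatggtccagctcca
The type IV windows share 78 bases, read in opposite directions, and are rich in G and C, at 74.0% for Col4a1 and 73.7% for Col4a2, against a median of 52.7% over 32851 promoter windows. CCAAT was found 1 time in each of them, and GGGCGG 1 time for Col4a1 and 3 times for Col4a2. Over all windows of this length, 37.4% held CCAAT, 35.7% GGGCGG and 13.6% TATAAA on either strand. The Col6a1 window, with 57.3% G and C, held none of the 3 motifs, and the Col6a2 window, with 56.7%, held GGGCGG 1 time, whereas the other RefSeq window of Col6a2 (64.3%) held it 3 times. Of the other members, windows were found for Col6a3, Col8a1, Col15a1 and Col16a1, of which Col16a1 (74.3% G and C) held CCAAT 1 time and GGGCGG 2 times and Col8a1 (60.3%) held GGGCGG 4 times. These matches describe the letters in the window and were not tested against expression.

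Total counts were 53990642 to 100777353 UMIs per pool. Of 107853 barcodes, 88909 passed the cell filters and 83826 remained after 5083 called doublets were removed. Both runs of a pool shared 84.5 to 99.8% of their barcodes, and no more than 28 barcodes were shared by different pools. Cells were assigned to classes by marker genes that include no collagen, and 52753 cells (62.9%) fell into a named class. The mesenchymal classes follow the names of the study: late mesenchymal progenitors (LMPs), marrow adipogenic lineage progenitors (MALPs), osteoblast progenitors (OBPs), 2 osteoblast classes (OB1 and OB2) and osteocyte-like cells (Ocy). The mesenchymal progenitor cells (MPCs) that the study also names were not gated, and 15561 mesenchymal cells fell into none of these 6 classes and are not described. There were 10586 LMP-like, 8179 MALP-like, 7779 OBP-like, 6076 OB1-like, 4512 OB2-like and 4909 Ocy-like cells, with 92 endothelial-like and 122 glial-like cells, and among the leukocytes there were 8654 macrophage-like, 712 granulocyte-like, 663 monocyte-like, 352 T cell-like and 117 osteoclast-like cells. A further 5518 leukocytes fell into no class, and 8 B cell-like cells were too few to describe. Adipoq was detected in 83.9% of MALP-like cells against 12.3% of LMP-like cells, Cdh5 in 92.4% of endothelial-like cells and C1qa in 98.1% of macrophage-like cells. The osteogenic classes were less distinct, with Ifitm5 in 94.9% of OBP-like, 84.7% of OB1-like, 84.3% of OB2-like and 78.9% of Ocy-like cells and Dmp1 in 89.1% of Ocy-like, 72.1% of OB1-like, 69.5% of OBP-like and 61.1% of OB2-like cells. Glial-like cells carried Ngfr (94.3%) and Sox10 (73.0%). Of 57602 cells past the mesenchymal limit, 9041 (15.7%) lay within 0.1 of the limit of a class, and such cells could fall into a neighbouring class with a slightly different limit. Pool 13 was the shallowest, with a median of 2782 UMIs per cell against up to 15273 in the other pools.

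A level below is the number of UMIs of a gene per 10,000 UMIs of all genes, summed over the cells of a class in a pool, and it is given as the mean ± SD over pools. Since 3′ chemistry yields about 1 count per transcript irrespective of its length, levels were not divided by length, and they are compared between classes and not between genes. A pool mixes several mice, so the spread between pools is not the spread between animals. Free RNA in the droplets gives every class some counts of abundant genes, and the level in macrophage-like cells is given beside the others as a reference from outside the stroma. The 10 collagens together made up 26.6 ± 4.05 UMIs per 10,000 in LMP-like cells (n = 16 pools), 18.4 ± 2.92 in MALP-like cells, 6.99 ± 1.04 in OBP-like, 4.12 ± 0.928 in OB1-like, 8.21 ± 1.57 in OB2-like (n = 14) and 3.44 ± 0.632 in Ocy-like cells. The sum was 20.7 ± 2.45 in endothelial-like cells (n = 4) and 0.798 ± 0.308 in macrophage-like cells (n = 16). The map of levels by class shows that the 10 genes did not share 1 pattern.

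**Figure D1:**
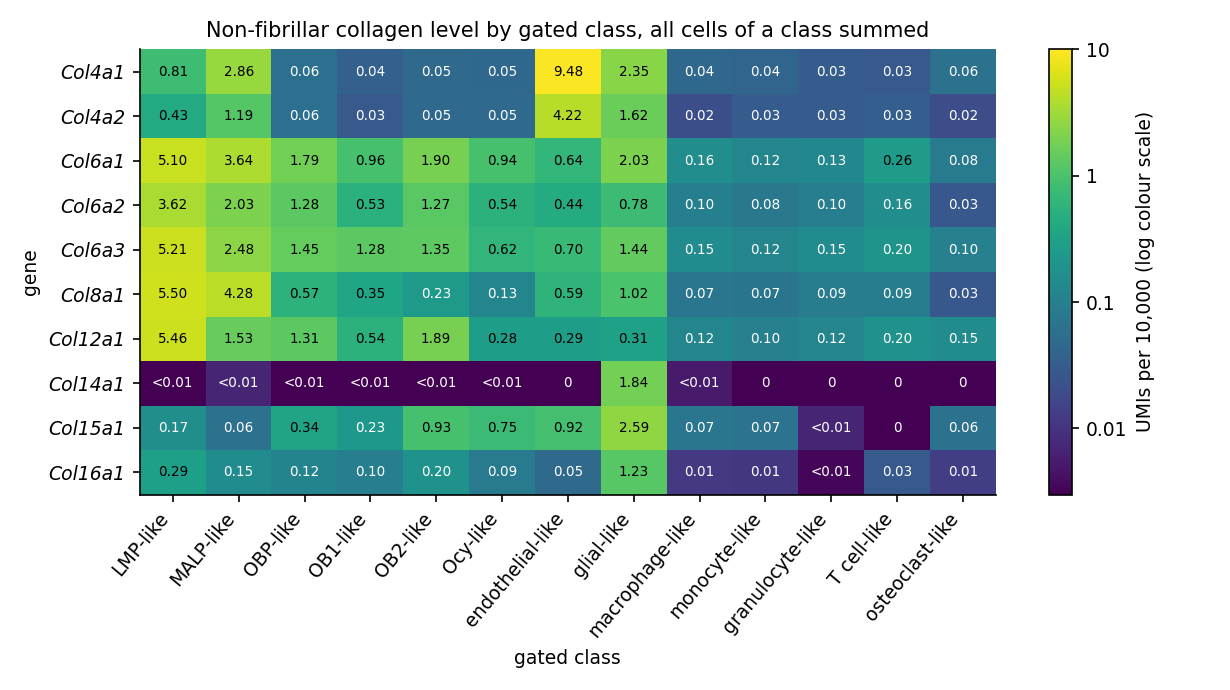
Level of each of the 10 collagens (rows) in each of the 13 gated classes (columns), as UMIs per 10,000 with all cells of a class summed over pools, on a logarithmic colour scale with the value printed in each cell. The type IV chains were highest in endothelial-like cells, followed by MALP-like cells for Col4a1 and glial-like cells for Col4a2, types VI, VIII and XII in LMP-like cells, Col15a1 in glial-like, OB2-like, endothelial-like and Ocy-like cells, and Col14a1 in glial-like cells.

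Classes were compared by edgeR's quasi-likelihood test on counts summed per pool and class, with the pool as a block and Benjamini-Hochberg adjustment over all genes tested, and a gene was called at an adjusted p of 0.05 or less. Of the 10 members, 9 passed the filter on low counts in each comparison, and Col14a1 did not. In MALP-like against LMP-like cells, 2 of 9 were higher (Col4a1, Col4a2) and 7 lower, with a median log2 fold change of -1.0, while 38.7% of 11874 genes were called higher and 34.9% lower, with a median of 0.03. In OBP-like against LMP-like cells, 1 was higher and 8 were lower (median -1.46), beside 37.7% and 39.4% of all genes (median -0.01). In OB1-like against OBP-like cells, 6 were lower and 3 did not pass (median -0.63), beside 26.2% of all genes higher and 24.0% lower (median 0.00), and 5 were lower with the other run (50.6% of all genes called in either direction), without the block (35.8%), with the stricter gate (49.9%) or with doublets kept (50.2%). With every other marker in the gate 6 were lower, but Col15a1 and Col16a1 took the place of Col4a1 and Col8a1 (43.9%). Without TMM factors all 9 were lower, in a fit that called 64.3% of all genes in either direction, against 50.2% with them. In OB2-like against OB1-like cells, 7 were higher and 2 did not pass (median 0.85), beside 28.9% higher and 29.4% lower (median -0.01). There, 5 were higher without the block (53.1% of all genes called in either direction, against 58.3% with it), 5 were higher and 1 lower with every other marker in the gate (57.5%), 6 higher and 1 lower with the other run (59.2%), and 8 higher and 1 lower of 10 tested with no filter on low counts (30.8%). The lower call was that on Col8a1 in each case. In Ocy-like against OB1-like cells, 2 were higher (Col4a2, Col15a1), 6 lower and 1 did not pass (median -0.21), beside 23.5% and 24.8% (median 0.01), and without TMM factors 3 were higher and 4 lower (59.3% of all genes called in either direction, against 48.4% with them). In edgeR, the call on Col4a2 there was lost without the block (0.60, adjusted p = 0.114) and with every other marker in the gate (0.18, adjusted p = 0.322), and that on Col16a1 without the block (-0.38, adjusted p = 0.123). Col4a1, which did not pass, was called higher without pool 13 (0.49, edgeR adjusted p = 0.00374) and without TMM factors (0.44, adjusted p = 0.0289). In endothelial-like against LMP-like cells, 3 were higher and 6 lower (median -2.42), beside 8.26% and 6.45% of all genes (median -0.04). In macrophage-like against LMP-like cells, all 9 were lower (median -4.95), beside 39.4% of all genes higher and 46.0% lower (median -0.10).

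The MALP-like, OBP-like, endothelial-like and macrophage-like comparisons share the LMP-like cells, and the OB1-like cells stand in 3 comparisons, so the comparisons are not independent of each other. The fold changes are on a TMM scale, which sets the bulk of genes near 0. Without TMM factors, the median of all genes would be at 0.25 for MALP-like, -0.34 for OBP-like, 0.10 for endothelial-like and -0.22 for macrophage-like cells against LMP-like cells, at -0.21 for OB1-like against OBP-like cells, and at 0.08 for OB2-like and 0.16 for Ocy-like cells against OB1-like cells. Changes are therefore relative to the other genes of a class. In macrophage-like cells, the falls were between -0.95 ± 0.215 for Col15a1 (edgeR adjusted p = 3.25e-04) and -6.15 ± 0.174 for Col8a1 (adjusted p = 1.88e-19).

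**Figure D2:**
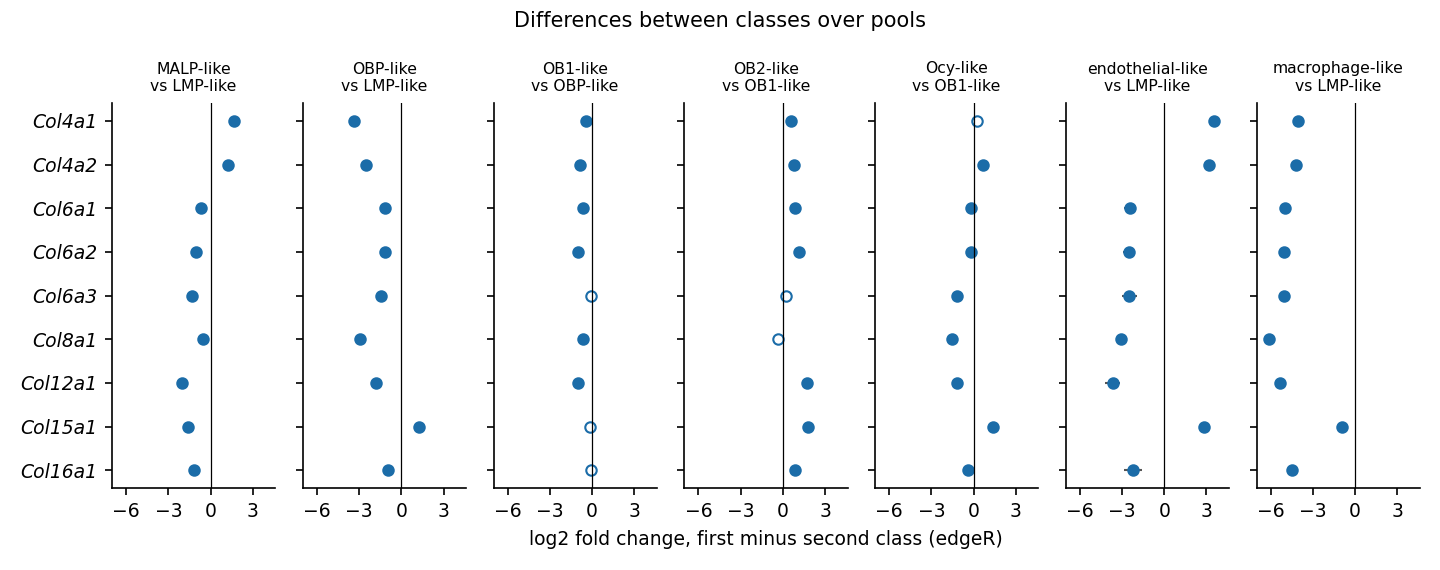
Log2 fold change of 9 collagens (rows) in the 7 comparisons (panels), first class minus second class, from edgeR with the pool as a block. Bars are 1 SE and are mostly shorter than the symbols, filled circles passed an adjusted p of 0.05 and open circles did not. The type IV chains and Col15a1 lie to the right of 0 in endothelial-like cells while the other 6 lie to the left, and all 9 lie to the left in macrophage-like cells.

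Col4a1 and Col4a2 encode the α1 and α2 chains, which form the heterotrimer found in almost all basement membranes. Both were highest in endothelial-like cells and, among the mesenchymal classes, in MALP-like and then LMP-like cells, and the osteogenic classes were far lower. The glial-like cells of pools 2 and 11 reached 2.26 and 0.934 UMIs per 10,000 for Col4a1 and 1.55 and 1.49 for Col4a2, the latter at or above the highest MALP-like pool (1.49). In endothelial-like cells, Col4a1 was at 10.3, 11.0, 14.2 and 8.40 UMIs per 10,000 in pools 9, 10, 13 and 18, which had 16, 19, 10 and 15 such cells, and LMP-like cells of the same pools were at 0.751, 1.03, 0.621 and 0.961. Col4a2 was at 4.30, 4.84, 4.36 and 4.50 in endothelial-like cells and at 0.423, 0.478, 0.394 and 0.486 in LMP-like cells of these pools. All 4 pools were higher in endothelial-like cells and the groups did not overlap for either chain. The log2 fold change in edgeR was 3.55 ± 0.242 (SE, n = 4 pools, adjusted p = 1.09e-06) for Col4a1 and 3.19 ± 0.205 (adjusted p = 6.73e-07) for Col4a2.

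The same order held between MALP-like and LMP-like cells over all 16 pools. In MALP-like cells, Col4a1 ranged from 1.98 to 3.91 with a median of 2.71 UMIs per 10,000, and in LMP-like cells from 0.256 to 1.11 with a median of 0.758. Every pool was higher in MALP-like cells and the ranges did not overlap, with a log2 fold change of 1.65 ± 0.0967 (edgeR adjusted p = 1.70e-12). Col4a2 ranged from 0.665 to 1.49 (median 1.24) in MALP-like cells and from 0.172 to 0.652 (median 0.435) in LMP-like cells. It too was higher in 16 of 16 pools with no overlap, by 1.23 ± 0.0704 on the log2 scale (edgeR adjusted p = 1.23e-12). With each cell thinned to 4000 UMIs, 54.1 ± 5.15% of MALP-like cells had a Col4a1 UMI against 22.7 ± 4.59% of LMP-like cells (n = 16 pools each), 85.5 ± 9.88% of endothelial-like cells (n = 3) and 1.62 ± 0.705% of macrophage-like cells (n = 16). Cells with fewer than 4000 UMIs were left out of thinned shares, which kept 6455 of 8179 MALP-like and 6036 of 8654 macrophage-like cells. Unthinned, and over all cells of the classes in these pools, the shares were 67.6%, 47.2%, 95.7% and 2.42%. The median depths of the classes were 8612, 17756, 16572 and 5398 UMIs per cell.

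In OBP-like cells, Col4a1 fell to 0.0606 ± 0.0355 UMIs per 10,000 and Col4a2 to 0.0608 ± 0.0224 (n = 16), changes of -3.39 ± 0.134 and -2.53 ± 0.0812 on the log2 scale against LMP-like cells (edgeR adjusted p = 2.94e-16 and 9.40e-18). In the smaller set of cells between 400 and 6200 UMIs, this change of Col4a1 was -1.92, and its change from LMP-like to MALP-like cells was 0.96. Macrophage-like cells were at 0.0418 ± 0.0174 and 0.0234 ± 0.0152. The 4 osteogenic classes had means between 0.0376 and 0.0609 for Col4a1 and between 0.0336 and 0.0608 for Col4a2, and their pools overlapped with each other and with the macrophage-like cells. Col4a1 was above the macrophage-like level of the same pool in 13 of 16 pools in OBP-like, 6 of 16 in OB1-like, 12 of 14 in OB2-like and 10 of 16 in Ocy-like cells, and Col4a2 in 16, 10, 14 and 15 pools. The median fold over the macrophage-like cells of the pool was 1.46 in OBP-like, 0.689 in OB1-like, 1.26 in OB2-like and 1.16 in Ocy-like cells for Col4a1, and 2.69, 1.45, 2.76 and 2.91 for Col4a2, beside 19.8 and 21.8 in LMP-like cells. Against OB1-like cells, OB2-like cells were at log2 0.57 ± 0.205 for Col4a1 (edgeR adjusted p = 0.0231), which was lost with the other run (adjusted p = 0.181), and at 0.82 ± 0.227 for Col4a2 (adjusted p = 0.00415), which was lost when the gate used every other marker (0.23, adjusted p = 0.309) and without the block (0.70, adjusted p = 0.0571). Pool 3 had the lowest Col4a1 level in LMP-like, MALP-like, OB1-like, OB2-like, Ocy-like and macrophage-like cells.

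**Figure D3:**
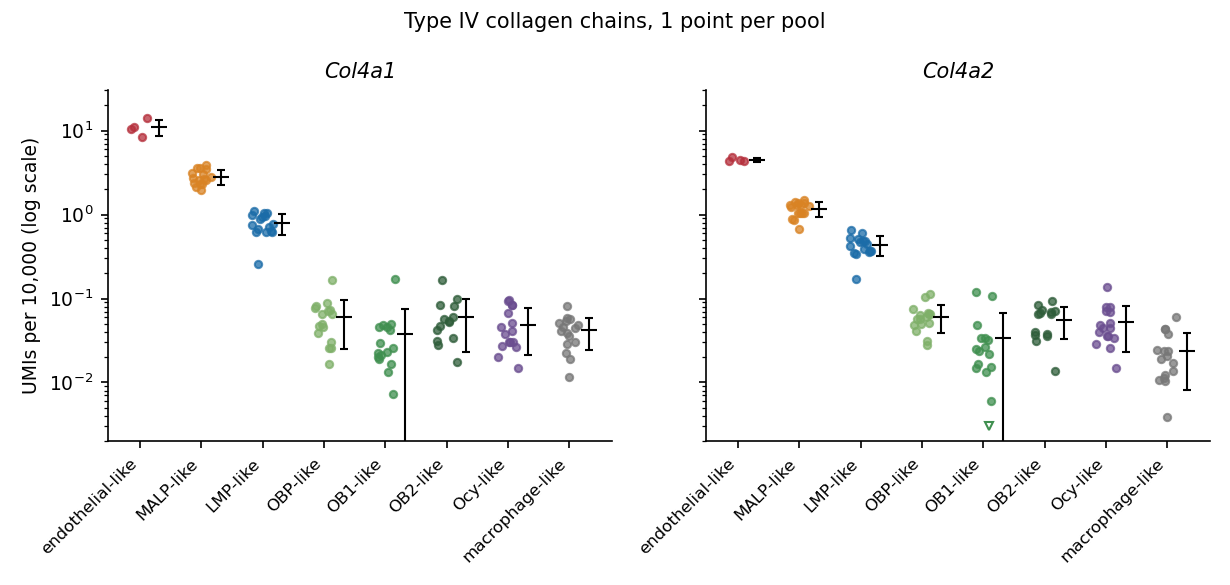
Levels of Col4a1 and Col4a2 in UMIs per 10,000 on a logarithmic axis, with 1 point per pool, the black mark at the mean and bars of 1 SD over pools (4 pools for endothelial-like, 14 for OB2-like and 16 for the other classes). An open triangle at the foot of the axis stands for a pool at 0, and the lower bar of OB1-like cells, where the SD is as large as the mean, runs off the axis. Endothelial-like, MALP-like and LMP-like pools form steps that do not overlap, and the other classes lie together below 0.2.

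The ratio of both type IV chains also differed between classes. The log2 ratio of Col4a1 to Col4a2 UMIs was 0.85 ± 0.15 in LMP-like cells, 1.28 ± 0.14 in MALP-like cells (n = 16 pools each) and 1.26 ± 0.33 in endothelial-like cells (n = 4), and all pools of these classes lay above 0. It was higher in MALP-like than in LMP-like cells in 16 of 16 pools, by 0.43 ± 0.24 (SD of the paired differences), with an adjusted p of 1.4e-04 in an exact two-sided paired permutation test adjusted over 18 such comparisons, whose raw p of 3.1e-05 is the smallest that 16 pools allow. The largest difference ran the other way, from LMP-like to OBP-like cells, at -0.98 ± 0.51 and lower in 16 of 16 pools (exact paired permutation test, adjusted p = 1.4e-04), with class means of -0.13 ± 0.50 in OBP-like, 0.27 ± 1.04 in OB1-like, 0.05 ± 0.57 in OB2-like (n = 14) and -0.12 ± 0.31 in Ocy-like cells at the low counts of these classes. The other 3 steps between osteogenic classes did not pass. With the other run, the step from OB1-like to Ocy-like cells did (-0.45, exact paired permutation test, adjusted p = 0.0415), where the main run gave -0.39 (adjusted p = 0.305). Between endothelial-like and LMP-like cells the difference was 0.36 ± 0.50, higher in 3 of 4 pools, and 4 pools cannot give a p below 0.125. Across pools, both chains moved together: the Pearson correlation of their log2 CPM was 0.961 in LMP-like cells (Spearman 0.885) and 0.906 in MALP-like cells (Spearman 0.962), over 16 pools each. The permutation p was 1.0e-05 for both Pearson values, the smallest that 100000 resamples give (adjusted p = 1.5e-05 over 6 relations). Without the 2 pools farthest from the median, the correlations were 0.885 and 0.891.

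Col6a1, Col6a2 and Col6a3 encode the chains of the main type VI heterotrimer, of which Col6a3 is the longest and extends from the core. Of the 6 gated mesenchymal classes, LMP-like cells were the highest for all 3. In LMP-like cells, Col6a1 ranged from 3.29 to 6.45 UMIs per 10,000 over 16 pools (median 5.20), Col6a2 from 2.52 to 4.66 (median 3.71) and Col6a3 from 3.75 to 6.52 (median 5.13). In MALP-like cells, the corresponding ranges were 2.30 to 4.73 (median 3.68), 1.38 to 2.94 (median 2.05) and 1.21 to 3.85 (median 2.34). The ranges of both classes overlapped for each chain, while within a pool the MALP-like cells were higher for Col6a1 in 2 of 16 pools and for Col6a2 and Col6a3 in 0 of 16 pools. The log2 fold changes were -0.69 ± 0.0769 (edgeR adjusted p = 6.00e-08), -1.0 ± 0.0789 (2.38e-10) and -1.29 ± 0.119 (2.84e-09).

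Between LMP-like and OBP-like cells the ranges did not overlap. OBP-like cells were at 1.79 ± 0.305 for Col6a1, 1.28 ± 0.215 for Col6a2 and 1.48 ± 0.238 UMIs per 10,000 for Col6a3 (n = 16), with no pool above its LMP-like counterpart. Log2 fold changes were -1.17 ± 0.0561, -1.15 ± 0.0563 and -1.46 ± 0.0461 (edgeR adjusted p = 9.10e-15, 1.57e-14 and 6.75e-18), the last at -0.87 within the limits on UMI counts. From OBP-like to OB1-like cells, Col6a1 fell to 1.00 ± 0.211 and Col6a2 to 0.565 ± 0.190, by 0.64 ± 0.0603 and by 1.01 ± 0.0687 on the log2 scale (adjusted p = 1.18e-08 and 7.29e-11), lower in 16 of 16 pools. The call on Col6a1 was lost within the limits on UMI counts (-0.26, edgeR adjusted p = 0.315). Col6a3 stood at 1.23 ± 0.322 in OB1-like cells, -0.05 ± 0.0858 on the log2 scale against OBP-like cells (adjusted p = 0.663), a value whose sign turned under several alternatives and which passed as lower without TMM factors (-0.27, adjusted p = 0.00739). Against OB1-like cells, OB2-like cells were higher for Col6a1 (1.97 ± 0.604, n = 14, log2 0.88 ± 0.123, adjusted p = 4.98e-06) and Col6a2 (1.31 ± 0.389, log2 1.18 ± 0.130, adjusted p = 2.69e-07) in 14 of 14 pools, whereas Col6a3 (1.45 ± 0.296) was at 0.20 ± 0.0937 (adjusted p = 0.0788), which passed with no filter on low counts (0.21, adjusted p = 0.0238) and without TMM factors (0.29, adjusted p = 0.0123). Ocy-like cells had the lowest mean of the mesenchymal classes for each chain, at 0.941 ± 0.151, 0.554 ± 0.0937 and 0.638 ± 0.239 UMIs per 10,000.

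Between Ocy-like and OB1-like cells it was Col6a3 that fell clearly, by 1.16 ± 0.0872 on the log2 scale (edgeR adjusted p = 5.63e-11, lower in 16 of 16 pools). Col6a1 and Col6a2 were called lower at -0.21 ± 0.0669 and -0.15 ± 0.0600 (adjusted p = 0.0103 and 0.0389), but their levels per 10,000 were higher in Ocy-like cells in 9 and 10 of 16 pools. Without TMM factors, they stood at -0.06 (adjusted p = 0.430) and 4.18e-03 (adjusted p = 0.958), so neither call holds across scalings. The ratio of Col6a3 to Col6a1 summarises this pattern. Its log2 mean was 0.01 ± 0.25 in LMP-like, -0.60 ± 0.44 in MALP-like, -0.28 ± 0.27 in OBP-like, 0.27 ± 0.39 in OB1-like, -0.42 ± 0.38 in OB2-like and -0.64 ± 0.48 in Ocy-like cells. All 5 steps passed the exact paired permutation test, the change from OBP-like to OB1-like cells by 0.54 ± 0.42 (adjusted p = 8.9e-04, higher in 15 of 16 pools) and from OB1-like to Ocy-like cells by -0.90 ± 0.59 (adjusted p = 3.7e-04, lower in 14 of 16).

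The core chains kept closer company. The log2 ratio of Col6a1 to Col6a2 lay between 0.48 and 0.86 in the mean in all 6 mesenchymal classes, although the differences of 0.31 ± 0.09 between MALP-like and LMP-like cells and of 0.39 ± 0.18 between OB1-like and OBP-like cells were seen in 16 of 16 pools (exact paired permutation test, adjusted p = 1.4e-04 for both). Across pools, the Pearson correlation of Col6a1 with Col6a2 was 0.967 in LMP-like and 0.913 in MALP-like cells (Spearman 0.944 and 0.885, permutation p of 1.0e-05 for both Pearson values, adjusted 1.5e-05), and 0.955 and 0.848 without the 2 farthest pools. For Col6a1 with Col6a3 it was 0.635 (Spearman 0.521) in LMP-like and 0.567 (Spearman 0.559) in MALP-like cells, with adjusted permutation p of 0.00928 and 0.0206. The Spearman values had adjusted permutation p of 0.0416 and 0.0318. Without the 2 farthest pools, the Pearson value dropped to 0.345 and 0.445 (adjusted permutation p = 0.229 and 0.135). Leaving out the pools at the ends narrows the range, which lowers a correlation by itself. The drop therefore does not show whether this relation rests on those pools. All 18 comparisons of ratios gave 10 that passed. With the other run the same ones passed, and so did Col4a1 to Col4a2 in Ocy-like against OB1-like cells (exact paired permutation test, adjusted p = 0.0415). The pairs share depth, library and the mice of a pool.

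**Figure D4:**
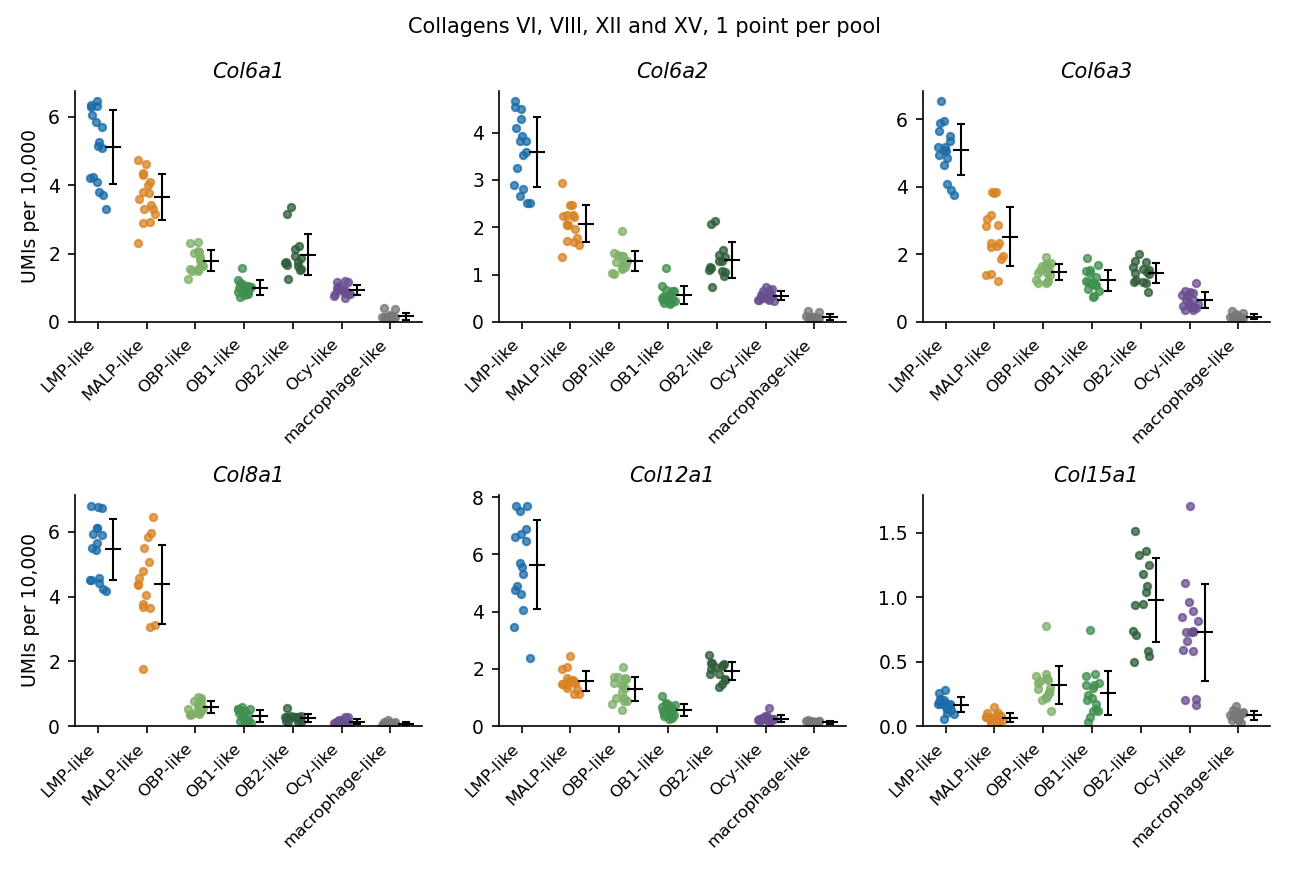
Levels of the type VI chains, Col8a1, Col12a1 and Col15a1 in UMIs per 10,000 on linear axes from 0, with 1 point per pool and the black mark and bars at the mean and 1 SD over pools (14 pools for OB2-like, 16 for the other classes). Of the classes shown, types VI, VIII and XII are highest in LMP-like cells, Col12a1 rises again in OB2-like cells, and Col15a1 is highest in OB2-like and Ocy-like cells.

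Col8a1, a short chain of the type VIII networks made by vascular and mesenchymal cells, marked the LMP-like and MALP-like classes together. It ranged from 4.18 to 6.80 UMIs per 10,000 (median 5.57) in LMP-like cells and from 1.76 to 6.45 (median 4.38) in MALP-like cells, with overlapping pools. The fall of 0.57 ± 0.102 on the log2 scale passed the test (edgeR adjusted p = 4.01e-05), lower in 14 of 16 pools. In OBP-like cells, it ranged from 0.359 to 0.906 (median 0.541), below every LMP-like pool, a log2 change of -2.93 ± 0.0913 (adjusted p = 5.50e-18) that was -1.79 within the limits on UMI counts. It was lower again in OB1-like cells, at 0.325 ± 0.185, by 0.63 ± 0.127 on the log2 scale (adjusted p = 2.29e-04), a call that was lost when the gate used every other marker (-0.09, adjusted p = 0.580) and turned in sign within the limits on UMI counts (0.17, adjusted p = 0.775). OB2-like cells were at 0.255 ± 0.115, which missed the threshold against OB1-like cells (-0.31 ± 0.181, adjusted p = 0.151) but passed it with the other run (-0.40, adjusted p = 0.0271), with no filter on low counts (-0.30, adjusted p = 0.0389) and with every other marker in the gate (-0.88, adjusted p = 3.95e-04). Ocy-like cells reached 0.131 ± 0.0762 (-1.54 ± 0.133 against OB1-like, adjusted p = 7.15e-10), above the macrophage-like level of the pool in 13 of 16 pools. From LMP-like to Ocy-like cells the mean level differed 41.7-fold.

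Col12a1 encodes a long FACIT that binds type I fibrils and is known from tendon, ligament and periosteum. In LMP-like cells, it ranged from 2.37 to 7.70 UMIs per 10,000 (median 5.62), with the lowest value in pool 18. MALP-like cells ranged from 1.13 to 2.44 (median 1.52) and OBP-like cells from 0.575 to 2.07 (median 1.38). Each pool was lower in both than in its LMP-like cells, by 2.02 ± 0.124 and by 1.81 ± 0.0882 on the log2 scale (edgeR adjusted p = 3.82e-12 and 1.36e-14), and the change in OBP-like cells was -1.11 within the limits on UMI counts. In OB1-like cells, Col12a1 ranged from 0.263 to 1.05 (median 0.529), and in OB2-like cells from 1.38 to 2.47 (median 2.03). The OB2-like pools all lay above the OB1-like pools, by 1.73 ± 0.150 on the log2 scale (adjusted p = 1.33e-08, 14 of 14 pools), a difference that missed the threshold in the smaller set of cells within the limits on UMI counts (0.53, adjusted p = 0.105). Ocy-like cells were the lowest, at 0.265 ± 0.115, which was -1.21 ± 0.0998 against OB1-like cells (adjusted p = 2.96e-10). Col16a1, a FACIT of dermal and vascular matrix, had the same order of class means, with 0.294 ± 0.0552 UMIs per 10,000 in LMP-like, 0.153 ± 0.0279 in MALP-like, 0.122 ± 0.0334 in OBP-like, 0.0982 ± 0.0354 in OB1-like, 0.195 ± 0.0361 in OB2-like and 0.0835 ± 0.0297 in Ocy-like cells. In OB1-like against OBP-like cells, Col16a1 did not pass, but was called lower with every other marker in the gate (-0.35, edgeR adjusted p = 0.0157) and without TMM factors (-0.33, adjusted p = 0.00585). Its log2 change was -1.16 ± 0.0717 in MALP-like and -0.97 ± 0.0834 in OBP-like cells against LMP-like cells (adjusted p = 4.55e-12 and 3.47e-10), and 0.85 ± 0.110 in OB2-like against OB1-like cells (adjusted p = 2.03e-06, 14 of 14 pools).

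Col15a1 moved in the opposite direction to the other 8 tested members between LMP-like and OBP-like cells. In LMP-like cells, it ranged from 0.0563 to 0.277 UMIs per 10,000 (median 0.170), in OBP-like cells from 0.118 to 0.778 (median 0.291), in OB2-like cells from 0.499 to 1.51 (median 0.995) and in Ocy-like cells from 0.162 to 1.71 (median 0.731). It was the only member that passed the test as higher in OBP-like than in LMP-like cells, by 1.27 ± 0.148 on the log2 scale (edgeR adjusted p = 6.15e-08, higher in 15 of 16 pools). OB1-like cells stood at 0.258 ± 0.172, -0.17 ± 0.168 against OBP-like cells (adjusted p = 0.431), which passed as lower with every other marker in the gate (-0.55, adjusted p = 0.0132) and without TMM factors (-0.40, adjusted p = 0.0435). Against OB1-like cells, it was higher in OB2-like cells in 14 of 14 pools (1.79 ± 0.272, adjusted p = 1.35e-05) and in Ocy-like cells in 16 of 16 pools (1.36 ± 0.0986, adjusted p = 3.16e-11), with ranges that overlapped. With cells thinned to 4000 UMIs, a Col15a1 UMI was found in 28.5 ± 7.81% of OB2-like cells (n = 14 pools) and 20.8 ± 9.45% of Ocy-like cells against 5.65 ± 1.95% of LMP-like and 3.20 ± 1.55% of macrophage-like cells (n = 16 pools). Unthinned, and with shallower cells included, these shares were 55.1%, 37.5%, 17.5% and 4.67% at median depths of 16388, 12729, 17756 and 5398 UMIs.

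The lowest mesenchymal class for Col15a1 was MALP-like, at 0.0650 ± 0.0347 UMIs per 10,000, which was under the macrophage-like mean of 0.0847 ± 0.0330 and above the macrophage-like level of the pool in 5 of 16 pools. The fall from LMP-like cells (-1.59 ± 0.212, edgeR adjusted p = 8.33e-07) was -2.60 with free RNA subtracted. The free RNA of a pool was taken there as the mean UMIs of a member per leukocyte droplet, macrophage-like cells included. The larger fall therefore depends on the macrophage-like counts and is not separate evidence. The leukocyte classes were not alike in Col15a1. Per 1000 UMIs of Col1a1 and Col1a2, which gauge the free RNA, there were 4.99 Col15a1 UMIs in macrophage-like cells (95% Poisson interval 4.52 to 5.49), 4.56 (3.20 to 6.32) in monocyte-like and 7.13 (3.26 to 13.5, from 9 UMIs) in osteoclast-like cells, against 0.417 (0.0505 to 1.51) in granulocyte-like cells and 0 of 4438 in T cell-like cells (up to 0.831). All cells together had 0.821. These intervals cover counting error only. The macrophage-like interval overlapped those of monocyte-like and osteoclast-like cells and lay above those of granulocyte-like and T cell-like cells, and what part of the macrophage-like counts was free RNA was not tested.

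In the 4 pools with at least 10 endothelial-like cells, Col15a1 was at 1.24, 1.09, 0.127 and 1.65 UMIs per 10,000 in pools 9, 10, 13 and 18, against 0.171, 0.189, 0.0563 and 0.0943 in LMP-like cells. Pool 13 stood apart with 2 UMIs in 10 cells, but every pool was higher in endothelial-like cells than in its LMP-like cells. The log2 fold change was 2.83 ± 0.377 (edgeR adjusted p = 2.60e-04). The other members that were tested, 6 of 9, fell in endothelial-like cells. Col6a1 was at 0.293, 1.06, 1.33 and 1.56 in endothelial-like and at 5.71, 6.29, 4.08 and 3.29 in LMP-like cells (-2.42 ± 0.416, adjusted p = 0.00170), and Col12a1 had the largest fall (-3.68 ± 0.561, adjusted p = 7.45e-04). Without pool 9 and without pool 18, Col12a1 was at -3.06 and -4.42, and Col6a3, at -2.49 with all 4 pools, was at -1.82 and -3.27. With every other marker in the gate, Col12a1 was at -2.37. With pools of at least 2 endothelial-like cells, the log2 fold change was -3.79 for Col6a1, -4.89 for Col12a1 and 2.09 for Col15a1. Endothelial-like cells held Col1a1 at 53.7 UMIs per 10,000, against 45.1 in LMP-like and 12.0 in T cell-like cells, and their Col6a1 count per 1000 UMIs of Col1a1 and Col1a2 was 6.62 (95% Poisson interval 5.42 to 8.02) beside 6.54 in all cells. For Col4a1 the same ratio was 97.8 (93.0 to 103) beside 1.37, and for Col15a1 it was 9.46 (8.01 to 11.1) beside 0.821. What part of the type VI counts in endothelial-like cells came from free RNA or from mesenchymal cells in the same droplet was not tested. The call on Col16a1 (-2.20 ± 0.649, adjusted p = 0.0409) rested on 7 UMIs in these 4 pools and was lost without pool 9, 10 or 13 (-1.55, -2.40 and -1.98, adjusted p = 0.131, 0.126 and 0.101), and it was at -3.29 without pool 18.

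**Figure D5:**
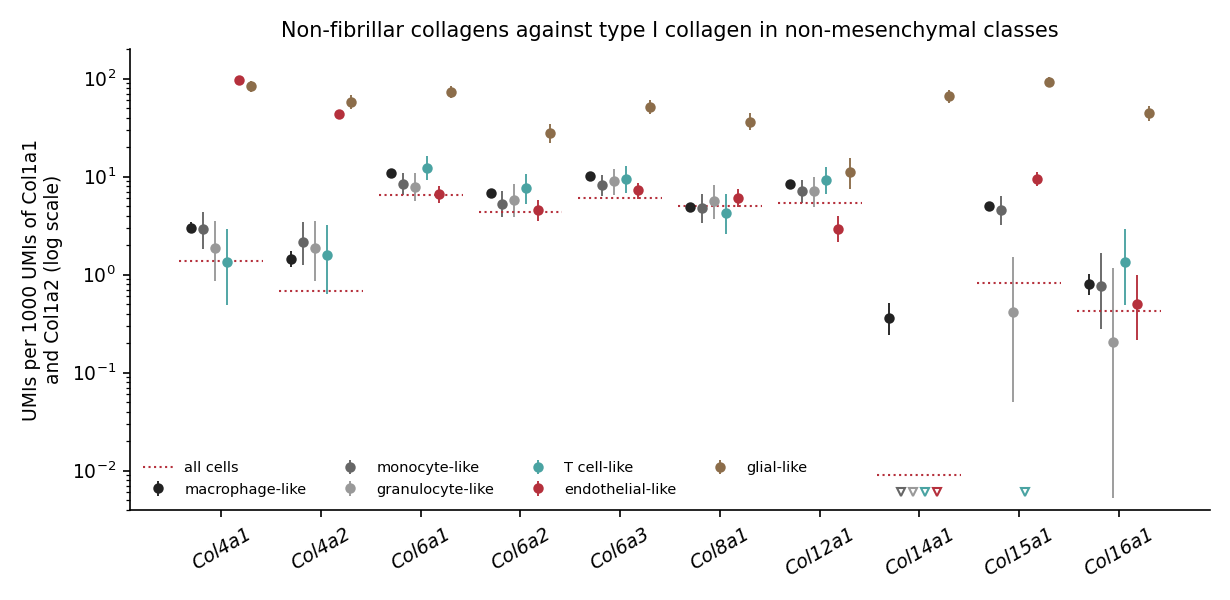
UMIs of each collagen per 1000 UMIs of Col1a1 and Col1a2 in 4 leukocyte classes (osteoclast-like cells are not plotted) and in endothelial-like and glial-like cells, on a logarithmic axis, with all cells of a class summed, 95% Poisson intervals as bars, open triangles for counts of 0 and a dotted line for all cells together. Types VI, VIII and XII of the leukocyte classes lie near the dotted line, Col4a1 and Col4a2 of endothelial-like cells and all 10 genes of glial-like cells lie above it, and Col15a1 is high in macrophage-like and monocyte-like but not in granulocyte-like cells.

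Col14a1, a FACIT related to Col12a1 and found in skin and tendon, was found in few mesenchymal cells. Only 342 of its UMIs were counted in all 83826 cells, and 191 of them (55.8%) were in the 122 glial-like cells, which are 0.146% of the cells. In the 2 pools with at least 20 glial-like cells, the level was 3.19 UMIs per 10,000 in pool 2 and 1.18 in pool 11, and 154 of the UMIs were in pool 2. Of the glial-like cells, 43 (35.2%) had a Col14a1 UMI, with up to 37 in 1 cell, against 42 (0.514%) of 8179 MALP-like cells, 17 (0.161%) of 10586 LMP-like cells and 28 (0.324%) of 8654 macrophage-like cells. The median depths were 8043 UMIs in glial-like, 8612 in MALP-like, 17756 in LMP-like and 5398 in macrophage-like cells. In endothelial-like cells, 0 UMIs were counted, which allows up to 0.0226 per 10,000 (95% Poisson limit). Col14a1 did not pass the filter on low counts in any of the 7 comparisons. Without the filter, edgeR called it higher in MALP-like than in LMP-like cells (log2 1.58, adjusted p = 0.00718), from 54 and 29 UMIs and higher in 10 of 16 pools. It was also called higher in macrophage-like than in LMP-like cells (1.67, adjusted p = 0.0318), from 30 and 29 UMIs and higher in 6 of 16 pools, and of the 29 LMP-like UMIs 12 were in pool 7. It was not called in the other 5 comparisons, and glial-like cells reached 20 cells in only 2 pools, so their levels are given without a test. The same 122 cells also held Col15a1 (2.59 UMIs per 10,000), Col4a1 (2.35), Col6a1 (2.03), Col4a2 (1.62) and Col16a1 (1.23), whereas Col12a1 was at 0.309. With all cells of a class summed, Col15a1 and Col16a1 were both higher there than in any other class. For Col15a1 the next were OB2-like (0.931) and endothelial-like cells (0.917, 95% Poisson interval 0.776 to 1.08), whose order is not settled. For Col16a1 the next were LMP-like cells (0.294). In pools 2 and 11, the glial-like level of Col16a1 was 1.26 and 1.06 and that of Col15a1 was 1.91 and 5.29.

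The spread between pools set some members apart from genes of like abundance. The SD over 16 pools of log2 CPM was 0.50 for Col4a1 and 0.43 for Col4a2 in LMP-like cells, against medians of 0.24 and 0.25 for genes with a mean within 2-fold, and 95.6% and 92.0% of those genes varied less. Col12a1 (0.46, median of like genes 0.23) and Col15a1 (0.53 against 0.27) also varied more than most there, while Col6a3 (0.22 against 0.23), Col8a1 (0.25 against 0.24) and Col16a1 (0.27 against 0.26) varied like other genes. In OB1-like cells, Col15a1 had an SD of 1.02 against 0.32 and Col8a1 of 0.95 against 0.31, with 98.4% of like genes below each. The Col15a1 level there was lowest in pool 6 (0.0317 UMIs per 10,000, 32 UMIs) and highest in pool 10 (0.745, 60 UMIs). In OB2-like cells pool 6 was the highest of 14 pools (1.51), but in Ocy-like cells it was at 0.208, below the class median of 0.731. Pool 10 was also the highest in OBP-like (0.778) and Ocy-like cells (1.71). The order of pools was therefore shared by some osteogenic classes and not by all. In MALP-like cells, Col6a3 (0.53 against 0.23) and Col8a1 (0.46 against 0.23) had the widest spread among the abundant members.

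Among genes whose class means were most like those of a member, partner chains led the type IV and type VI collagens. Over 13 class means, which share the free RNA of the same droplets, Col4a2 had a Pearson r of 0.990 with Col4a1, and the scaffold protein gene Akap12 followed for both (0.982 and 0.989), before Ehd2 for Col4a1 (0.959) and the basement membrane glycoprotein Nid1 for Col4a2 (0.973). Col6a1 and Col6a2 (0.985) were nearest to each other and Col6a3 was nearest to Col6a2 (0.982), and the first gene of another kind was Nbl1 for Col6a1 (0.976), the fibrillar chain Col3a1 for Col6a2 (0.979) and the matrix glycoprotein Tnc for Col6a3 (0.967). For Col8a1 they were Tagln (0.974, a smooth muscle protein and a marker in the LMP gate), Pdgfrb (0.972) and Snai2 (0.966), and for Col12a1 Col3a1 (0.941), Fgf7 (0.938) and Twist1 (0.933). Among the genes most like Col16a1 were Postn (0.950) and Pcbp4 (0.943), and Col15a1 was less closely followed, by Ptk2 (0.896), Slc30a9 and Bod1 (0.870 each). The genes nearest to Col14a1 were Ngfr, Foxd3 and Cdh19 (1.000 each), all of them markers of the glial gate.

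Other non-fibrillar chains were mostly too low to test, with 4 to 8 of 23 past the filter on low counts. In OBP-like against LMP-like cells, Col13a1, a transmembrane collagen, rose from 0.0228 ± 0.0214 to 0.619 ± 0.156 UMIs per 10,000 (log2 5.26 ± 0.174, edgeR adjusted p = 1.45e-17) and Col22a1, a FACIT of tissue junctions, from 0.0419 ± 0.0322 to 0.930 ± 0.199 (4.95 ± 0.150, adjusted p = 3.45e-18), while Col8a2, the partner chain of Col8a1, fell from 0.182 ± 0.0729 to 0.0167 ± 0.00983 (-3.05 ± 0.119, adjusted p = 2.52e-16). Of the 8 tested there, 3 were higher and 5 lower (median -0.62), beside 37.7% and 39.4% of all genes. Col22a1 rose further in OB1-like cells to 2.04 ± 0.517 (adjusted p = 2.09e-09) and was lower in OB2-like than in OB1-like cells in 14 of 14 pools (-1.54 ± 0.130, adjusted p = 9.46e-09), opposite in direction to Col12a1. In MALP-like cells, 1 of 8 was higher and 5 were lower, beside 38.7% and 34.9% of all genes. The higher one was Col6a5, which can take the place of Col6a3 in type VI. It rose from 0.00676 ± 0.0142 to 0.0597 ± 0.0887 UMIs per 10,000 (2.92 ± 0.49, edgeR adjusted p = 1.88e-05). This is a low level with an SD above the mean, and whether it replaced Col6a3 was not tested. Among the lower ones was Col7a1 of the anchoring fibrils (-3.13 ± 0.256, adjusted p = 4.31e-10). In the other comparisons, 3 of 7 were higher and 1 lower in OB1-like (26.2% and 24.0% of all genes), 1 of 6 higher and 2 lower in OB2-like (28.9% and 29.4%), 3 of 4 lower in Ocy-like (24.8%), 1 higher and 1 lower of 4 in endothelial-like (8.26% and 6.45%) and 5 of 7 lower in macrophage-like cells (46.0%).

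Partners of the type IV network in basement membranes (laminins, nidogens, perlecan and others, 18 genes) were called higher in endothelial-like cells for 7 of 12 tested and lower for 1 (median log2 fold change 1.15), beside 8.26% and 6.45% of all genes. The named ones were Lama5, a laminin chain of vessels (4.72 ± 0.501, edgeR adjusted p = 4.19e-05), and Pxdn, the peroxidase that cross-links type IV collagen. Pxdn rose from 0.0522 ± 0.0259 in LMP-like to 1.03 ± 0.284 in endothelial-like cells (4.17 ± 0.353, adjusted p = 6.59e-06) and, over 16 pools, from 0.0575 ± 0.0222 to 0.245 ± 0.0962 in MALP-like cells (1.83 ± 0.169, adjusted p = 3.00e-09). In MALP-like cells, 7 of 14 were higher and 5 lower (median 0.15), beside 38.7% and 34.9% of all genes, and in OBP-like cells 4 of 13 were higher and 8 lower (median -0.99), beside 37.7% and 39.4%, with Nid1 at -3.29 ± 0.0852 (adjusted p = 2.72e-19) and Lama2 at -2.86 ± 0.251 (5.35e-10). In OB2-like against OB1-like cells, 7 of 9 were higher and 1 lower (median 0.46), beside 28.9% and 29.4% of all genes, led by Lamb1 (1.53 ± 0.264, adjusted p = 5.60e-05) and Nid1 (1.29 ± 0.258, 2.48e-04), both at 0.0590 UMIs per 10,000 or less. In OB1-like cells, 3 of 10 were higher and 3 lower (26.2% and 24.0% of all genes), in Ocy-like 3 of 8 higher and 2 lower (23.5% and 24.8%), and in macrophage-like 10 of 12 lower (46.0%).

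Of 19 binding partners and receptors of types VI, XII and XIV, 17 or 18 were tested. In MALP-like cells, 6 of 17 were higher and 10 lower (median -0.28), beside 38.7% and 34.9% of all genes: Itga1, the integrin subunit that binds type IV collagen, rose from 0.448 ± 0.0762 to 1.92 ± 0.327 UMIs per 10,000 (1.88 ± 0.0506, edgeR adjusted p = 4.48e-18), and the fibril-binding proteoglycans Fmod (-4.21 ± 0.187, adjusted p = 1.74e-14) and Lum (-3.14 ± 0.229, 6.77e-11) fell. In OBP-like cells, 7 were higher and 7 lower of 17, near the 37.7% and 39.4% of all genes, with Itga10 at 2.59 ± 0.110 (adjusted p = 1.04e-15). Cspg4 (NG2, a receptor of type VI collagen) was higher than in OB1-like cells both in OB2-like (1.40 ± 0.130, adjusted p = 2.97e-08, 14 of 14 pools) and in Ocy-like cells (1.74 ± 0.0924, adjusted p = 1.59e-13, 16 of 16 pools), and Itga2 was higher in Ocy-like cells (4.65 ± 0.229, adjusted p = 3.92e-14). Antxr1, which binds the C-terminal part of the Col6a3 chain, was lower in OB2-like than in OB1-like cells (-0.61 ± 0.0890, adjusted p = 7.86e-06), and Tnc was lower in Ocy-like cells in 16 of 16 pools (-1.25 ± 0.0936, adjusted p = 5.56e-11). In OB1-like cells, 3 of 17 were higher and 8 lower (26.2% and 24.0% of all genes), in OB2-like 4 of 17 higher and 5 lower (28.9% and 29.4%) and in Ocy-like 5 of 18 higher and 9 lower (23.5% and 24.8%). In endothelial-like cells, 1 of 18 was higher (Itga2, 5.31 ± 0.510, edgeR adjusted p = 1.90e-05) and 9 lower, beside 8.26% and 6.45% of all genes, and in macrophage-like cells 16 of 17 were lower and 1 higher, Antxr2 (0.83 ± 0.0721, adjusted p = 2.61e-10), beside 46.0% and 39.4%.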

How the data were processed

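Single cells from 16 pools were captured with 10x 3′ v2 chemistry, and the authors deposited UMI counts per gene and barcode for each of 2 sequencing runs of every pool, made with Cell Ranger 5.0.0 on mm10 (GRCm38) per the labels. The gene set of the files matched GENCODE M21. The deposited counts of run HGYVNCCX2 were used as they stand, and the other run only as an alternative, because both runs read the same cells.

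Barcodes were kept with 400 to 6200 detected genes and at most 10% mitochondrial, 20% Rpl and 15% Rps counts. The barcodes with the highest scores against simulated doublets were then removed, at 0.8% per 1000 barcodes of a pool. Classes were gated per cell on 117 markers in 16 lists that hold no collagen gene. Pools needed 20 cells of a class (10 for endothelial-like cells). The sums of counts over the cells of a class in a pool were fitted in R 4.3.3 with edgeR 4.0.16 (TMM factors, filterByExpr, the pool as a blocking term) and called where the adjusted p was 0.05 or less. DESeq2 1.42.0 was an alternative. Other steps used Python 3.11.15 with numpy 2.4.6, scipy 1.17.1 and pandas 2.3.3. The fit was also run on simulated counts in which few genes changed. In most comparisons here a large share of all genes was called, so the simulation does not show how the fit behaves there. Ratios between chains were compared by exact paired permutation tests, since 3′ UMI counts carry no length scale. Intervals on counts cover counting error only.

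The pool number pairs the classes, because a pool is 1 mixture of mice in 1 capture. The deviations of same-pool samples from their class means had a median correlation of 0.320 to 0.626 and a lowest of 0.154 in the 6 comparisons of 14 or 16 pools, and a median of 0.014 and a lowest of -0.151 in the endothelial-like comparison of 4 pools. The pools hold cells of separate mice, which were pooled after culture and isolation of single cells. With the pool as a block or pairing, a p-value between classes weighs the mean class difference against its variation between pools. It does not measure the spread between mice.

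The text names all 10 members, and of each of 3 gene lists at most the 3 genes with the largest absolute log2 fold change past the threshold in each comparison and direction, and the 3 genes whose class means correlated best with those of a member. Of the genes these rules and the marker lists name, 3 are not reported here. The members and the gene lists were chosen with earlier results of these data known. Alternatives changed the run, gate, doublets, cell limits, filter, scaling, free RNA, block and tool. Settings without TMM factors, with at least 2 endothelial-like cells per pool and without each endothelial-like pool in turn were chosen after seeing the data.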

Additional observations from a re-analysis of the deposited data

Results flagged for a closer look

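In 35 groups of 4 to 10 pools, 4 had a pool that stood farther from the others than Dixon's test allows at the 95% level. A chance rate of about 1 in 20 groups assumes continuous values. The flagged values are counts of 1 to 5 UMIs, so that rate does not apply and no excess is read from 4 of 35. All 4 were low levels in leukocyte classes. Col16a1 in monocyte-like cells was at 0.0918 UMIs per 10,000 in pool 17 (1 UMI in 21 cells), with the next of 6 pools at 0.0243. Col16a1 in granulocyte-like cells was at 0.0455 in the same pool (1 UMI in 61 cells) and at 0 in the other 7 pools. Col4a1 was at 0.107 in granulocyte-like cells of pool 11 (2 UMIs), with the next of 8 pools at 0.0438. It was at 0.0561 in T cell-like cells of pool 14 (5 UMIs), with the other 3 pools at 0. Where all other pools are at 0, Dixon's ratio is 1.00 whatever the count. No cause was tested for these values.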

How the results depend on the processing

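Of 57 calls on single members, 45 held in every setting where the member could be refitted, and 12 were lost in at least 1. A member under the filter on low counts in a setting was not refitted there. With limits on UMI counts, 6 members were tested in OBP-like against LMP-like cells and 5 in Ocy-like against OB1-like cells, against 9 in each main fit. A call among the 45 may therefore not have been tried in every setting. DESeq2 and RLE factors kept all 63 directions and calls, and subtracting free RNA kept all 53 that could be refitted. Over all settings, 767 of 817 refits kept direction and call, 30 kept the direction but lost the call, 12 kept it and gained a call, and 8 turned in sign. Some of these refits could not differ or were counted again. The larger minimum of 50 cells left out no pool in MALP-like, OBP-like and macrophage-like against LMP-like cells. In the endothelial-like comparison, the fit without pool 13 was counted again among those leaving out each pool in turn. Among those that turned, the calls on Col8a1 in OB1-like against OBP-like cells (UMI limits) and on Col6a2 in Ocy-like against OB1-like cells (without TMM factors) were also lost. With limits of 400 and 6200 set on UMIs in place of detected genes, the members called fell from 6 of 9 tested to 1 of 5 (OB1-like against OBP-like), from 7 of 9 to 3 of 6 (OB2-like against OB1-like) and from 8 of 9 to 3 of 5 (Ocy-like against OB1-like), while the share of all genes called fell from 50.2% to 3.86%, from 58.3% to 8.31% and from 48.4% to 13.7%. Under these limits, Col12a1 was at -0.28 in OB1-like against OBP-like cells (edgeR adjusted p = 0.418), and against OB1-like cells Col15a1 was at 1.12 in OB2-like cells and Col6a3, Col8a1 and Col12a1 were at -0.53, -0.80 and -0.61 in Ocy-like cells. Without the replicate block, 5 members and 29.7% of all genes were called in Ocy-like against OB1-like cells, where the block gave 8 and 48.4%. The sign turned for Col6a3 in OB1-like against OBP-like cells (0.03 with the stricter gate, 0.14 with every other marker, 0.10 with the UMI limits), for Col8a1 there (0.17 with the UMI limits), for Col6a3 in OB2-like against OB1-like cells (-0.03 with every other marker, -0.02 with the UMI limits) and in Ocy-like against OB1-like cells for Col4a1 (-0.01 with every other marker) and Col6a2 (4.18e-03 without TMM factors). The log2 ratio of Col6a1 to Col6a2 was at 0.21 in endothelial-like against LMP-like cells and at -0.11 in the other run, and neither passed (exact permutation test, adjusted p = 0.662 in each, n = 4 pools). The share of LMP-like cells with a Col6a1 UMI was 76.0% at 4000 UMIs per cell and 56.3% at 2000, with shallower cells left out each time. Leaving out each of the 4 endothelial-like pools gave 8 to 9 calls on members, with 9.1% to 16.2% of all genes called against 14.7% with all 4. With pools of at least 2 endothelial-like cells, Col6a2, Col6a3, Col8a1 and Col16a1 were at -3.81, -3.81, -4.03 and -2.85 against LMP-like cells, and Col6a2 was at -3.09 with the stricter gate. The cause of these changes was not tested. The UMI limits and the larger minimum of cells left no endothelial-like pool and were not run there.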
